A study of Mus musculus with 6 samples.

Results

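The p53 target genes described here are 33 of the 43346 genes in the count table. They were picked by symbol from the known targets of the transcription factor p53, without the inhibitors of cyclin-dependent kinases. Trp53, which encodes p53 itself, is included. They were sorted by known function into p53 and its feedback genes (6), apoptosis genes (13), DNA repair genes (6) and genes of arrest, stress and metabolism (8). All 33 passed the filter on low counts. RNA-seq measured limb bones of C57BL/6 pups aged 1 day, in 3 wild type libraries and 3 libraries labelled Hdac3 CKO, with Prx1 named in the series' design as the driver of the knockout. Hdac3 encodes a histone deacetylase that works in repressor complexes, and the comparison asks how gene expression in forming bone differs when the gene is deleted. The Prx1 enhancer is commonly used to express Cre in limb bud mesenchyme, so blood cells and muscle fibres of the same bones are not the intended site of deletion. Whether each library came from its own pup or litter is not in the labels, so the p-values reflect only how much these libraries vary, part of which may be technical.

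p53 is held at a low level in unstressed cells by the ubiquitin ligase MDM2 and its partner MDM4. DNA damage and other stresses release it, and it then switches on genes for cell cycle arrest, repair and apoptosis, together with its own inhibitors, Mdm2 among them, which close a feedback loop. In bone, deletion of Mdm2 in osteoblasts is known to raise p53 activity and to block their maturation.

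p53 binds DNA as a tetramer through paired 10-base half-sites. Promoter windows of 300 bases, from 250 before to 50 after each transcription start, were taken from RefSeq on the GRCm38.p6 build, which has the mm10 coordinates. Of the 33 members 25 had a window. The p53 half-site, searched on both strands by its usual consensus, was present in a window of 11 of these 25 genes (44%, exact 95% interval 24.4% to 65.1%) and of 9.55% of all 27025 genes with windows. In the narrower stretch from 100 bases before the start onward it was present in 4 of the 25 (16%), against 4.43% of all genes. The members were chosen as p53 targets, so this excess is a description of the list. The matches of 8 members of the feedback, apoptosis and repair roles are printed, since they show the form of the motif that p53 is known to bind. Each has 10 flanking bases on either side, runs 5′ to 3′ on the gene's strand, and has the match in capitals.
Trp53, chr11:69580274-69580303, plus strand: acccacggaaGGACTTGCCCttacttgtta
Mdm2, chr10:117710925-117710954, minus strand: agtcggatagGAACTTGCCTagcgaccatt
Ccng1, chr11:40755452-40755481, minus strand: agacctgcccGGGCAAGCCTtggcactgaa
Ppm1d, chr11:85311112-85311141, plus strand: gggcgggggcGAGCTTGCTCttcttgactc
Bax, chr7:45467080-45467109, minus strand: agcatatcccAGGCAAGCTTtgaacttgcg
Aen, chr7:78895927-78895956, plus strand: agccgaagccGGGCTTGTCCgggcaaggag
Ei24, chr9:36797325-36797354, minus strand: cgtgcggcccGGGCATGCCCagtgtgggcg
Gadd45a, chr6:67037428-67037457, minus strand: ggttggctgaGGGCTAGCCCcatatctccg
The other 3 genes with a match were Sesn1, Polk and Rps27l. The match lay 75 bases before the start in Trp53, 186 in Mdm2 and 201 in Bax. The windows of Phlda3 and Eda2r, the members with the largest fold changes, held no half-site but did hold CATG, a common centre of half-sites, whose 4 letters read the same on both strands. They are shown for comparison, with CATG in capitals, 45 bases after the start of Phlda3 and 4 after that of Eda2r.
Phlda3, chr1:135766105-135766134, plus strand: gcggcgcaggaggcgagcggtggaaCATGt
Eda2r, chrX:97377189-97377218, minus strand: gggataggcataaCATGaaagaaatagagg
CATG was common, in 10 of the 25 members (40%) and in 64.8% of all genes. These windows cover only the starts, and sites that p53 uses in introns or far from a gene lie outside them. The 11 genes with a half-site had a median log2 fold change of 0.01 between the genotypes, and the 14 with a window and none had a median of 0.08.

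Total counts per library ranged from 43389262 to 50927978, and levels are given as CPM, reads of a gene scaled to a common library size, after TMM normalisation. Hdac3 fell, from 47.4 to 50.3 CPM in wild type to 28.3 to 31.8 CPM in Hdac3 CKO, with a log2 fold change of -0.71 and an adjusted p of 0.0270. Its adjusted p was 0.0167 without Hdac3 CKO replicate 1 and 0.0680 to 0.126 without any other single library. Hdac3 CKO replicate 1 stood apart by gene length: long genes (over 8000 bases) lay 0.53 lower in it than short genes (under 2000 bases), as median deviations on the log2 scale, while in the other 5 libraries the same difference lay between -0.01 and 0.26. Hdac3 CKO replicate 3 held 132 CPM of 4 Y-linked genes, against 1.71 to 5.60 CPM in the others. It held 19.3 CPM of the X-linked gene Xist, against 700 to 2094 CPM in the others. By these genes that library read as male and the others as female, so the genotypes were not matched for sex. Wild type replicate 3 and Hdac3 CKO replicate 3 were rich in cartilage markers. Summed markers of osteoblasts were higher in every Hdac3 CKO library (39153 to 58592 CPM) than in every wild type library (24702 to 33214 CPM), but Col1a1 alone made up most of that sum (23530 to 55680 CPM). Of the 6 osteoblast markers 1 rose, Dmp1. Without a call, Ibsp (1.21 on the log2 scale), Col1a1 (0.75) and Sp7 (0.38) also had all Hdac3 CKO values above all wild type values. Runx2 was lower in every Hdac3 CKO library (-0.44) and Bglap stood at -0.23, and none was at 0. Summed markers of macrophages were higher (331 to 422 against 172 to 217 CPM, with 4 of 5 markers rising). Those of neutrophils were lower (16.2 to 23.1 against 75.7 to 223 CPM, with 4 of 6 falling), as were those of B lymphoid cells (1.38 to 2.58 against 5.25 to 15.8 CPM, with 1 of 5 falling) and erythroid cells (94.6 to 109 against 151 to 244 CPM, with 2 of 4 falling). The p53 target genes are expressed in many cell types, so these shifts in the bulk tissue stand beside every result that follows, and their part in the results was not tested. In bulk bone, fewer cells of a type and less RNA per cell cannot be told apart.

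The Hdac3 CKO bones showed a rise in 1 of the 33 p53 target genes, Phlda3, and a fall in 0, where 0.703% of all genes tested rose and 0.475% fell. Genes of apoptosis made up most of the members that stood higher. With TMM, 7 of 13 had all Hdac3 CKO values above all wild type values, against 11.5% of all genes tested. In the other roles it was 0 of 6 feedback genes, 0 of 6 repair genes and 1 of 8 genes of arrest, stress and metabolism. With library totals in place of TMM it was 3 of 13 apoptosis genes, against 4.32% of all genes tested. In DNA repair the members that separated the genotypes stood lower, Ddb2 and Rrm2b. These are 2 of 6, where 10.9% of all genes tested separated downward. With library totals in place of TMM it was again 2 of 6, against 23.6% of all genes tested. Trp53 and Mdm2 overlapped between the genotypes. These differences between roles were not tested. The members were chosen with earlier results of these data known, so their shares, here and below, describe the list and are no test of it.

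Set against the whole transcriptome, calls were edgeR quasi-likelihood results at a Benjamini-Hochberg adjusted p under 0.05. Of all 20210 genes tested 1.18% passed in either direction, against 1 of the 33 members. At an unadjusted p under 0.05 there were 10 members, 8 higher and 2 lower, where 15% of all genes reached that level. Values did not overlap between the genotypes in 8 members on the higher side (24.2%) and 4 on the lower side (12.1%), against 11.5% and 10.9% of all genes tested. The median log2 fold change of the members was 0.02, with 21 above 0 and 12 below, and that of all genes tested was 0.00. The members ranged from -0.45 (Mdm4) to 0.82 (Phlda3). With library totals in place of TMM the median of all genes moved to -0.18 and that of the members to -0.16. With those totals 4 members (12.1%) separated upward and 7 (21.2%) downward, against 4.32% and 23.6% of all genes tested, and the apoptosis genes that separated upward numbered 3 of 13. By the deposited RPKM the apoptosis genes that separated upward numbered 4 of 13, against 4.65% of all genes tested. With library totals there were 3 members higher and 5 lower at an unadjusted p under 0.05, and 2 higher and 4 lower with limma on log2 RPKM. The shares of all genes at that level, by direction and under these scalings, are not given here. The balance of directions among the members thus turned with the scaling, but the median of all genes also moved down with library totals.

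**Figure D1:**
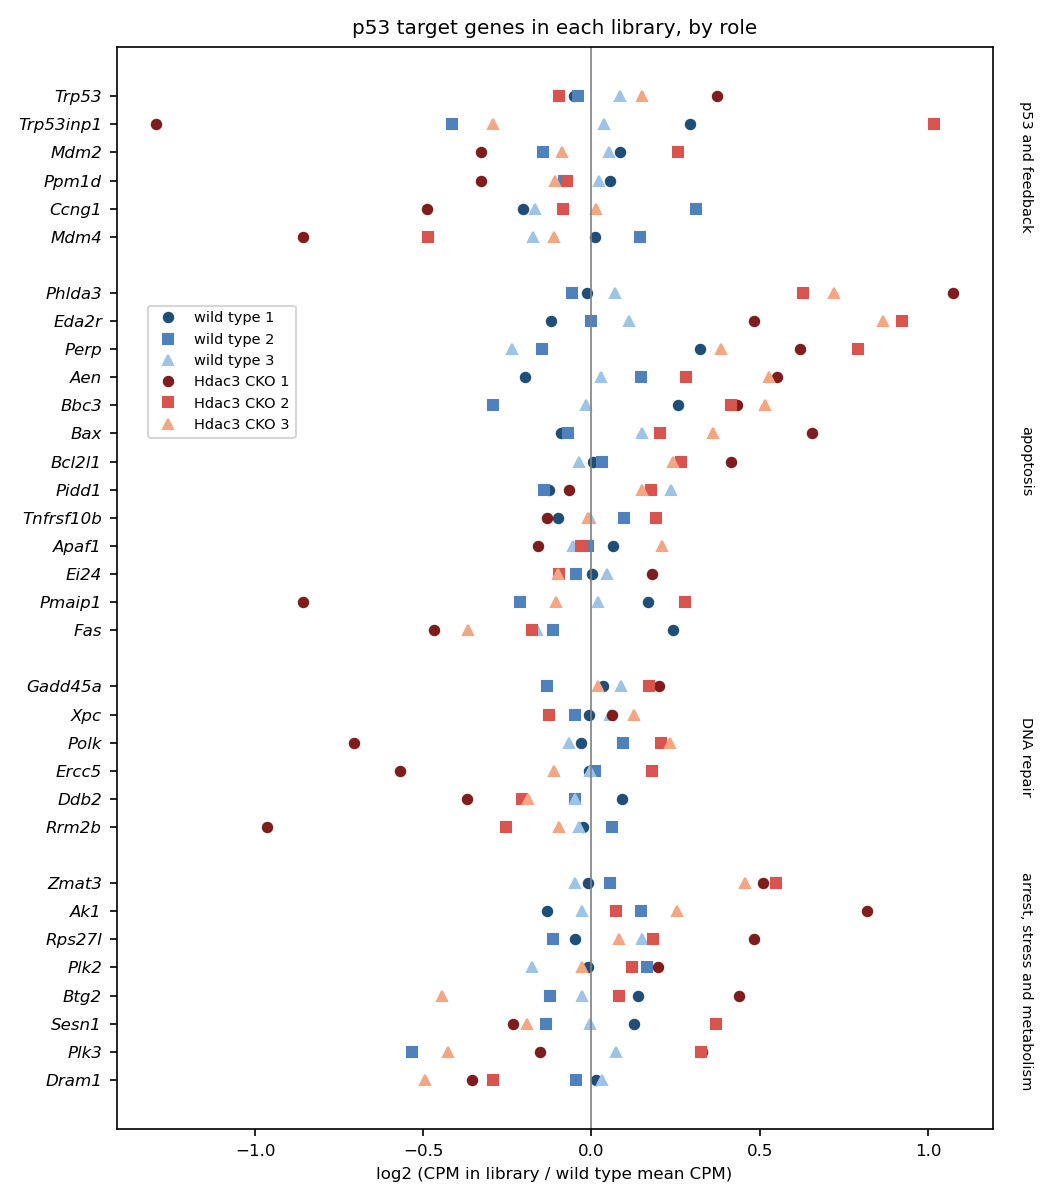
Each point is 1 library, plotted as the log2 ratio of its TMM-normalised CPM to the wild type mean of that gene, for the 33 members grouped by role and sorted by fold change; blue points are wild type and red points Hdac3 CKO. In 7 apoptosis genes all 3 Hdac3 CKO points lie right of the wild type points and in Fas all 3 lie left of them, while Hdac3 CKO replicate 1 is the lowest point in 5 of 6 feedback genes.

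Phlda3 encodes a small pleckstrin homology domain protein that competes with the kinase AKT for membrane lipids and so restrains survival signalling. The gene (ENSMUSG00000041801, chromosome 1, 135766119 to 135769136 on mm10) had 30.6, 29.7 and 32.4 CPM in the wild type bones, against 65.0, 47.8 and 50.9 CPM in the Hdac3 CKO bones. Every Hdac3 CKO library lay above every wild type library, and the wild type values were close together. The wild type libraries averaged 30.9 ± 1.38 CPM (SD, n = 3) and the Hdac3 CKO libraries 54.6 ± 9.20 CPM (SD, n = 3). Phlda3 rose 1.77-fold, or by 0.82 ± 0.15 (SE) on the log2 scale, and the quasi-likelihood test of edgeR gave an adjusted p of 0.0332. The call was lost when any wild type library was left out (adjusted p 0.149, 0.160 and 0.0967 without replicates 1, 2 and 3) or without Hdac3 CKO replicate 3 (0.0879), and the log2 fold change stayed between 0.66 and 0.91 in the 6 fits that each left out 1 library. It was also lost with library totals (0.0574) and on log2 RPKM with a pseudocount of 1 (0.130).

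Eda2r encodes a receptor of the tumour necrosis factor receptor family that binds ectodysplasin A2. This X-linked gene (ENSMUSG00000034457, 97333840 to 97377216) had 10.1, 11.0 and 11.9 CPM in wild type, against 15.4, 20.9 and 20.1 CPM in Hdac3 CKO. The groups did not overlap, and the lowest Hdac3 CKO value was that of replicate 1. Eda2r stood 1.71-fold higher, at 0.77 ± 0.16 (SE) on the log2 scale, and its adjusted p of 0.0601 was just above the threshold. Without Hdac3 CKO replicate 1, the library with low long genes, it was 0.89 with an adjusted p of 0.0212, and without any other single library the adjusted p was 0.108 to 0.257. With library totals the values were 0.59 and 0.147, and with the Y-linked level as a covariate 0.71 and 0.110.

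The mitochondrial branch of apoptosis was represented by Bax, which permeabilises the outer membrane, by Bbc3 and Pmaip1, whose BH3-only proteins PUMA and NOXA release it, and by Bcl2l1, whose main product BCL-XL opposes it. Bax (chromosome 7, 45461695 to 45466898) had 22.6, 23.0 and 26.7 CPM in wild type, against 37.9, 27.8 and 31.0 CPM in Hdac3 CKO. The groups were separated by a narrow gap, between wild type replicate 3 and Hdac3 CKO replicate 2. Its log2 fold change was 0.42 (95% interval 0.08 to 0.76), with an adjusted p of 0.246. In GENCODE M21, 12.2% of the exon bases of Bax also belong to Gm45808 on the same strand. That annotation gives Bax 1576 exon bases, against a deposited length of 869, so the shared bases may not be among those counted.

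Bcl2l1 (chromosome 2, 152780668 to 152831728), the survival gene of the group, had 29.5, 30.1 and 28.7 CPM in wild type, against 39.2, 35.4 and 34.8 CPM in Hdac3 CKO. All 3 Hdac3 CKO libraries were higher, and the log2 fold change was 0.31 (0.04 to 0.58), with an adjusted p of 0.278. The ratio of Bax to Bcl2l1, taken from RPKM, which scales reads by gene length and library total, averaged 4.33 ± 0.51 (SD, n = 3) over the wild type libraries and 4.64 ± 0.48 over the Hdac3 CKO libraries. A two-sided exact permutation test of that ratio gave p = 0.5, adjusted p = 0.7 over 3 ratios, where 3 libraries against 3 allow no p below 0.1.

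Bbc3 (chromosome 7, 16309616 to 16318205) was weakly expressed, at 4.998, 3.41 and 4.13 CPM in wild type, against 5.64, 5.57 and 5.98 CPM in Hdac3 CKO. Its Hdac3 CKO values were closely grouped above the wild type range, at a log2 fold change of 0.45 (0.01 to 0.90), with an adjusted p of 0.325. Pmaip1, in contrast, overlapped between the genotypes, with a mean of 6.81 ± 0.89 CPM in wild type, against 6.11 ± 2.25 CPM in Hdac3 CKO, and 3.75 CPM in Hdac3 CKO replicate 1.

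Further effectors were Aen, a nuclease that cuts DNA during apoptosis, and Perp, a membrane protein of desmosomes with a role in p53-dependent death. Aen (chromosome 7, 78895854 to 78911209) had 12.9, 16.3 and 15.1 CPM in wild type, against 21.6, 17.9 and 21.3 CPM in Hdac3 CKO. The groups did not overlap, and the difference was 0.46 (0.12 to 0.80) on the log2 scale, with an adjusted p of 0.207. Perp (chromosome 10, 18845071 to 18857073), the member with the lowest wild type RPKM (0.714), had 2.07, 1.49 and 1.40 CPM in wild type, against 2.54, 2.87 and 2.16 CPM in Hdac3 CKO. Its groups were separated only by the small step between 2.07 and 2.16 CPM, and the log2 fold change was 0.61 (0.04 to 1.17), with an adjusted p of 0.302.

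The death receptors and the initiator machinery looked different. Fas, the receptor of Fas ligand, was the only apoptosis member whose Hdac3 CKO values all lay below wild type, at 3.67 ± 0.38 against 4.62 ± 0.74 CPM. The groups were separated only by the small step from 4.13 CPM in wild type replicate 3 to 4.09 CPM in Hdac3 CKO replicate 2. The log2 fold change of Fas was -0.33, with an adjusted p of 0.468. Tnfrsf10b, the mouse receptor of the death ligand TRAIL, stood at 0.02. Apaf1, the scaffold of the apoptosome, stood at 0.01 (-0.29 to 0.31). Pidd1, which assembles a caspase-activating platform, stood at 0.09. Ei24, a membrane protein of the endoplasmic reticulum, stood at 0.00 (-0.29 to 0.29). In all 4 of these the libraries of the genotypes overlapped. Of the 13 apoptosis members 11 stood above 0, and their median log2 fold change was 0.31.

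**Figure D2:**
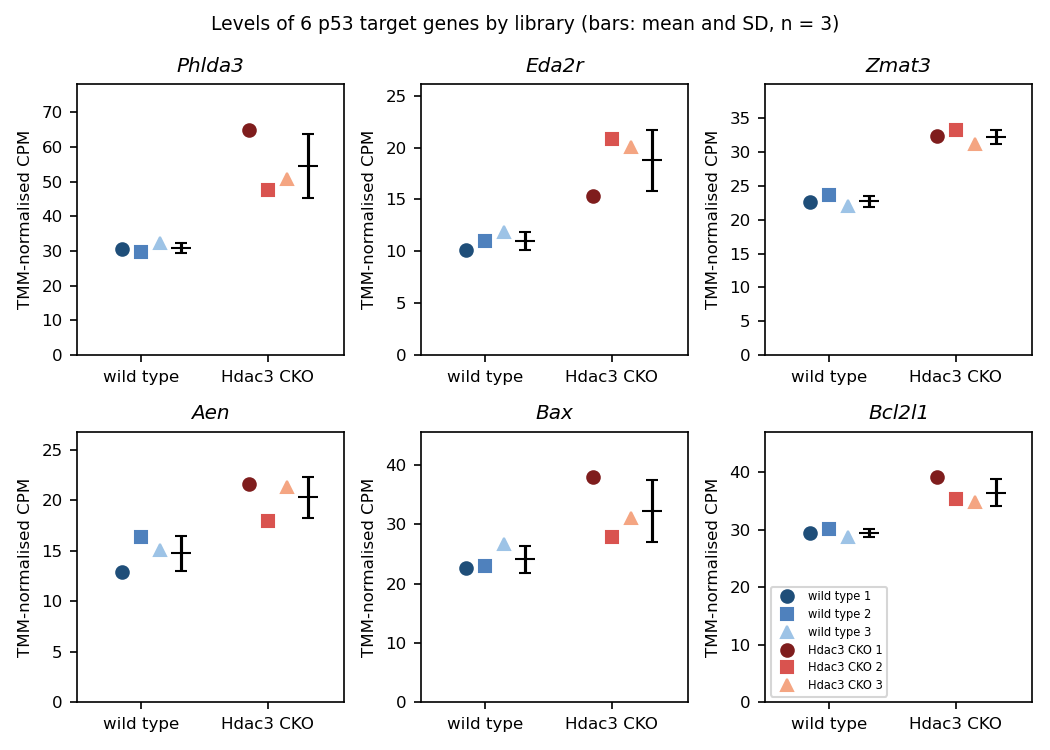
TMM-normalised CPM of Phlda3, Eda2r, Zmat3, Aen, Bax and Bcl2l1 in each of the 6 libraries, with the mean and SD of each genotype (n = 3) beside the points. The groups do not overlap in any of the 6 genes, and the step is widest in Phlda3, from 32.4 to 47.8 CPM.

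The transcript of p53 itself and those of its feedback genes did not separate the genotypes. Trp53 (chromosome 11, 69580359 to 69591873) had 33.8, 34.1 and 37.1 CPM in wild type, against 45.4, 32.7 and 38.9 CPM in Hdac3 CKO. Hdac3 CKO replicate 1 was the highest library and Hdac3 CKO replicate 2 the lowest. The log2 fold change was 0.16 (95% interval -0.17 to 0.48), with an adjusted p of 0.639, so the interval runs from 0.888-fold to 1.40-fold. p53 is controlled largely through its protein, which RNA-seq does not measure.

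Mdm2 (chromosome 10, 117688888 to 117710758), the target that marks p53 activity in many tissues, had 54.1, 46.2 and 52.9 CPM in wild type, against 40.6, 61.0 and 48.1 CPM in Hdac3 CKO. The Hdac3 CKO libraries held both the lowest and the highest value. The log2 fold change was -0.03 (-0.40 to 0.33), with an adjusted p of 0.943. The RPKM ratio of Mdm2 to Trp53 was 1.17 ± 0.10 in wild type and 1.06 ± 0.39 in Hdac3 CKO (exact permutation p = 0.7, adjusted p = 0.7), and its log2 difference of -0.19 became 0.06 without Hdac3 CKO replicate 1.

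Mdm4, which encodes the partner of MDM2 that blocks p53's activation domain, had the lowest fold change of all members. It stood at 113 ± 12.4 CPM in wild type, against 82.8 ± 21.2 CPM in Hdac3 CKO, which is -0.45 on the log2 scale (-0.87 to -0.04), with an adjusted p of 0.300. Hdac3 CKO replicate 3, at 105 CPM, lay above wild type replicate 3, at 100 CPM. The gene is 14798 bases long and its lowest value, 62.6 CPM, was in Hdac3 CKO replicate 1; without that library the fold change was -0.30. The ratio of Mdm4 to Mdm2 was 0.768 ± 0.145 in wild type and 0.577 ± 0.153 in Hdac3 CKO (exact permutation p = 0.3, adjusted p = 0.7).

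Ppm1d, whose phosphatase WIP1 switches p53 off, stood at -0.17, with 12.1 to 13.3 CPM in wild type, against 10.2 to 12.2 CPM in Hdac3 CKO. Ccng1, which encodes cyclin G1, a partner of phosphatase 2A, also stood at -0.17, with 180 to 256 CPM in wild type, against 147 to 208 CPM in Hdac3 CKO. Trp53inp1, which promotes autophagy and p53-dependent death, could hardly be measured as a difference. It had 15.1, 74.9 and 30.2 CPM in the 3 Hdac3 CKO libraries, a 4.96-fold range within the genotype, against 27.8 to 45.3 CPM in wild type. The standard error of its log2 fold change (0.11) was 0.55, the widest of all members. The 6 feedback genes had a median of -0.10, and 2 of them stood above 0.

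The DNA repair members showed no call either way. Ddb2, the damage sensor of nucleotide excision repair, had 17.7 ± 1.01 CPM in wild type, against 14.8 ± 1.01 CPM in Hdac3 CKO. All Hdac3 CKO libraries were below wild type, with a log2 fold change of -0.25 (-0.56 to 0.05) and an adjusted p of 0.415. Acp2 shares 23.8% of the exon bases of Ddb2 on the opposite strand, and the strand setting of the counts is not given in the sources used here. Rrm2b, the p53-inducible subunit of ribonucleotide reductase that supplies nucleotides for repair, had 9.92 ± 0.38 CPM in wild type, against 7.56 ± 2.20 CPM in Hdac3 CKO. Its groups were also separated, but 5.09 CPM in Hdac3 CKO replicate 1 was far from the 8.32 and 9.28 CPM of the other Hdac3 CKO libraries, and the log2 fold change was -0.39 (-0.88 to 0.10), with an adjusted p of 0.431.

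The remaining repair genes overlapped between the genotypes. Xpc, which recognises distorted DNA, stood at 0.02, with 13.5 ± 0.49 CPM in wild type, against 13.7 ± 1.22 CPM in Hdac3 CKO. Ercc5, the nuclease that cuts on the far side of a lesion, stood at -0.14, and Polk, a polymerase that copies past lesions, at -0.03. Both were lowest in Hdac3 CKO replicate 1, at 18.9 and 8.14 CPM, while the other Hdac3 CKO libraries held 26.0 to 31.8 CPM of Ercc5 and 15.3 to 15.6 CPM of Polk. Gadd45a, a stress protein with roles in demethylation, repair and arrest, stood at 0.13 (-0.20 to 0.46), and 19.1% of its exon bases are shared with E230016M11Rik on the opposite strand. The 6 repair genes had a median of -0.08.

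Among the genes of arrest, stress and metabolism, Zmat3 was the most evenly separated. Zmat3 encodes a zinc finger protein that binds RNA and regulates splicing and mRNA stability, and has been described as a mediator of tumour suppression by p53. The gene (chromosome 3, 32334792 to 32366014) had 22.6, 23.6 and 22.0 CPM in wild type, against 32.3, 33.2 and 31.2 CPM in Hdac3 CKO. Both groups were tight, with SDs of 0.833 and 1.05 CPM, and far apart. The log2 fold change was 0.51 (0.23 to 0.78), or 1.42-fold, with an adjusted p of 0.0895. It was called in 1 of 19 alternatives, DESeq2 (0.0191), and library totals gave 0.32 (adjusted p 0.206), limma on log2(RPKM + 1) gave 0.25 (0.364), and the fits that left out 1 library gave adjusted p values of 0.0908 to 0.340. At 11435 bases it is the second longest member after Mdm4, and Hdac3 CKO replicate 1 was not low in it.

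Dram1, a lysosomal membrane protein of autophagy, went the other way, with 7.78, 7.46 and 7.87 CPM in wild type, against 6.03, 6.30 and 5.46 CPM in Hdac3 CKO. The groups did not overlap, at a log2 fold change of -0.38 (-0.74 to -0.02), with an adjusted p of 0.316.

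The other 6 genes of this role overlapped. Ak1, adenylate kinase 1 of muscle and other tissues, had the highest RPKM of all members in wild type (88.3). Its CPM was 484 in Hdac3 CKO replicate 1, against 289 and 327 in the other Hdac3 CKO libraries and 251 to 304 in wild type. Summed muscle markers were also highest in Hdac3 CKO replicate 1, at 33430 CPM, against 16677 to 20061 CPM in the others, and their part in the Ak1 value was not tested. Rps27l, a ribosomal protein paralogue whose reads may be shared with Rps27, stood at 0.26. Plk2 and Plk3, polo-like kinases of the stress response, stood at 0.10 and -0.05. Btg2, an antiproliferative partner of mRNA deadenylases, stood at 0.07, and its Hdac3 CKO libraries (88.3, 68.9 and 47.8 CPM) lay on both sides of the wild type range (59.8 to 71.6 CPM). Sesn1, a sestrin that restrains mTORC1, stood at 0.01, with 64.4, 97.8 and 66.3 CPM in Hdac3 CKO and 68.8 to 82.6 CPM in wild type. The 8 genes had a median of 0.09.

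**Figure D3:**
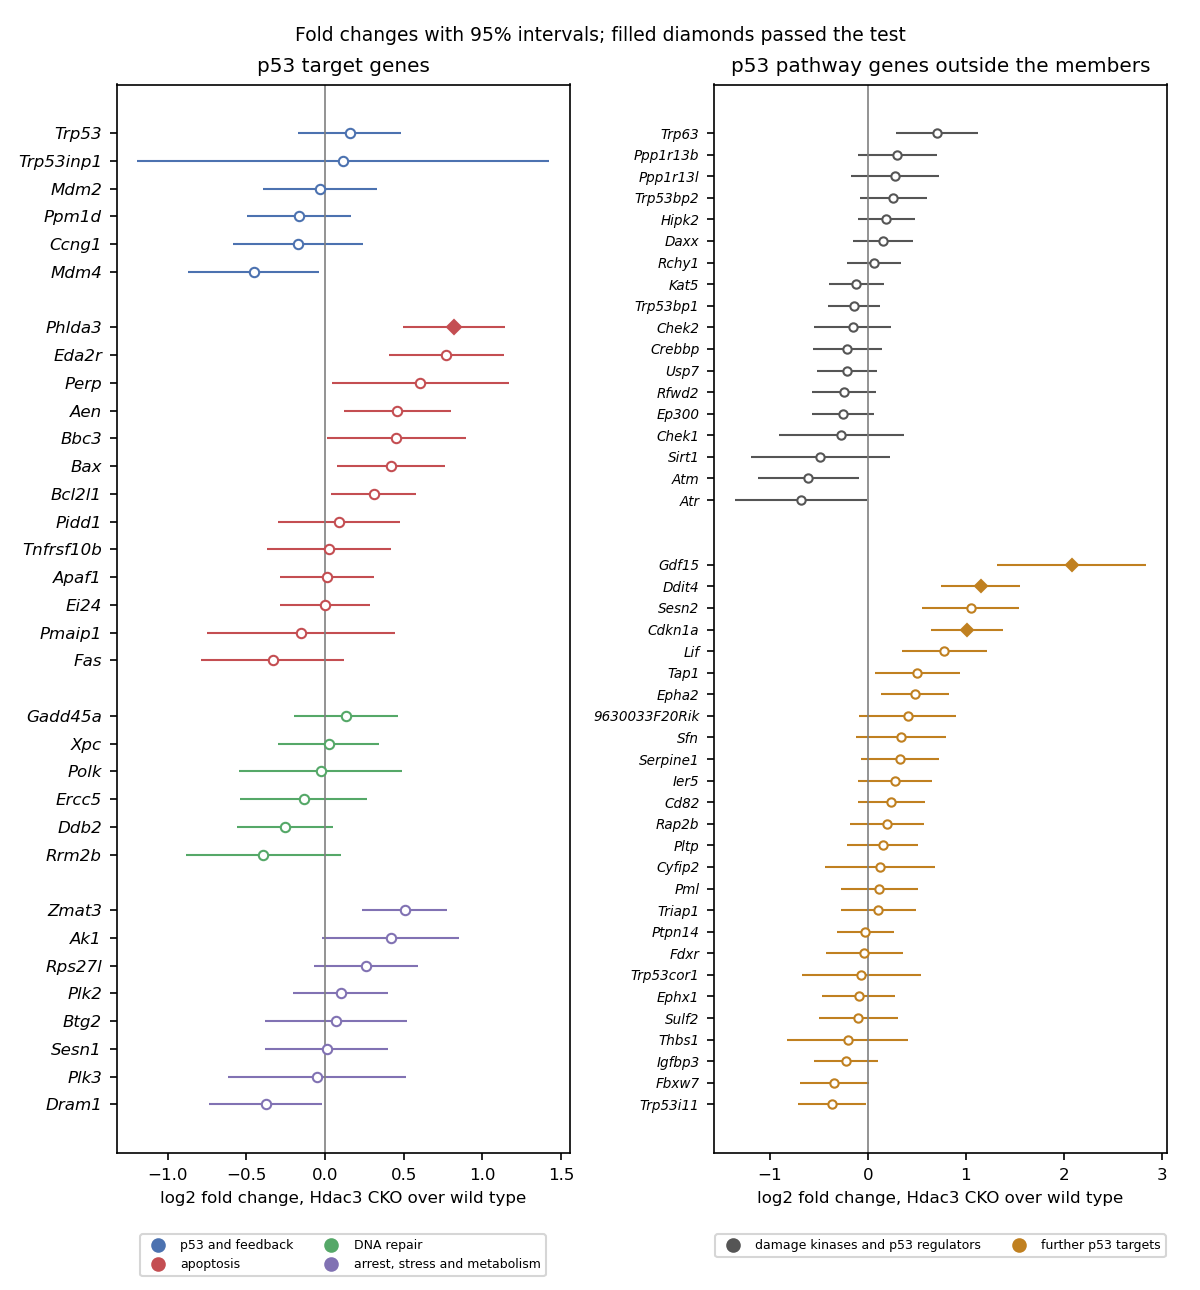
Log2 fold changes (Hdac3 CKO over wild type) with 95% intervals from the fit across all genes, for the 33 members on the left and for 44 p53 pathway genes outside the members on the right; filled diamonds passed the test. Phlda3 is the filled member, and Gdf15, Ddit4 and Cdkn1a are the filled genes outside.

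Among the members Hdac3 CKO replicate 1 was most often at an end of the range: it was the lowest of the 6 libraries in 14 of the 33 members and the highest in 11. In 23 of 33 members the SD of log2 CPM was larger in Hdac3 CKO than in wild type, with medians of 0.21 and 0.12. These counts were not taken over all genes. Across the transcriptome, pairs of libraries also differed more within Hdac3 CKO than within wild type. The chi-square per degree of freedom of a pair was 89.9 to 132 within Hdac3 CKO and 47.4 to 68.2 within wild type. The log2 ratio of Hdac3 CKO replicate 1 to the mean of the other Hdac3 CKO libraries was lowest in Trp53inp1 (-1.79) and Pmaip1 (-0.94), followed by Polk (-0.92), Rrm2b (-0.78), Ercc5 (-0.61) and Mdm4 (-0.57). Of these 6 Pmaip1, at 2646 bases, was shorter than the median member (3327 bases) and the others were longer. The highest ratios were 0.65 in Ak1 and 0.60 in Btg2, of 2593 and 2743 bases, and 0.40 in Phlda3 and 0.37 in Bax, of 1559 and 869 bases. Across the 33 members this ratio was related to log2 gene length with a Pearson r of -0.45 and a Spearman rho of -0.52. The members share the same 3 libraries and totals and are not independent points. Over all genes tested the same values were -0.06 and -0.17. Phlda3 had its highest value in that library and Eda2r, of 5891 bases, its lowest Hdac3 CKO value; both were separated from wild type without it, at 0.66 and 0.89 on the log2 scale.

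**Figure D4:**
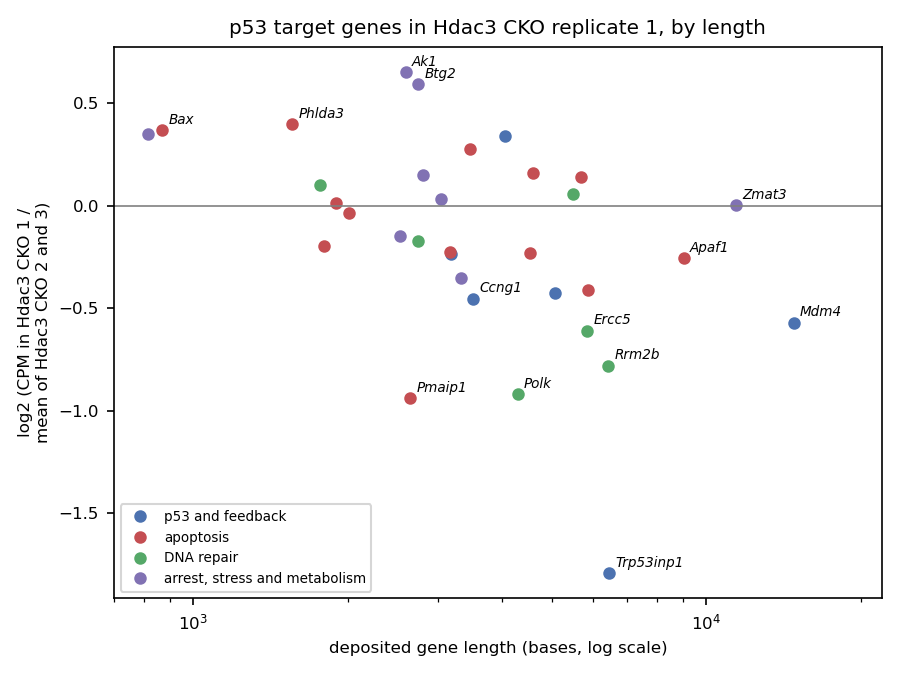
The log2 ratio of CPM in Hdac3 CKO replicate 1 to the mean of Hdac3 CKO replicates 2 and 3, against the deposited gene length in bases on a log axis, for the 33 members coloured by role. Trp53inp1 lies lowest, at -1.79, Pmaip1, Polk, Rrm2b, Ercc5 and Mdm4 lie between -0.94 and -0.57, Zmat3, of 11435 bases, lies at 0.01, Ak1 and Btg2 lie highest, and the short genes Bax and Phlda3 lie at 0.37 and 0.40.

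The genes around the members were taken from a list of kinases and regulators upstream of p53 and a list of further targets. Of the 20 regulators 18 were tested and 0 passed in edgeR, where 1.18% of all genes tested passed. An unadjusted p under 0.05 was reached by 3 of the 18, close to the 15% of all genes tested. DESeq2 called 1, Trp63, and the share of all genes that DESeq2 called is not given here. The regulators' median log2 fold change was -0.15. Trp63, a p53 family member typical of epithelium, had 4.42, 4.498 and 3.40 CPM in wild type, against 6.66, 7.12 and 6.39 CPM in Hdac3 CKO, with a log2 fold change of 0.71 and an adjusted p of 0.117. Atm, the kinase that signals double-strand breaks, had 16.5 to 23.7 CPM in wild type, against 8.596 to 15.7 CPM in Hdac3 CKO, with a log2 fold change of -0.61 and an adjusted p of 0.266; its lowest value was in Hdac3 CKO replicate 1.

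Of the 26 further targets 3 rose and 0 fell, where 0.703% of all genes tested rose and 0.475% fell. Values separated upward in 8 of the 26 (30.8%) and downward in 1 (3.85%), against 11.5% and 10.9% of all genes tested. The list was chosen with earlier results of these data known, so the counts describe the list and are no test of it. The median of the 26 was 0.18 with TMM and -0.016 with library totals. Cdkn1a, the inhibitor p21 through which p53 halts the cell cycle, had 158, 162 and 204 CPM in wild type, against 411, 347 and 298 CPM in Hdac3 CKO, and rose by 1.01 ± 0.17 (SE) on the log2 scale (adjusted p 0.0251). Ddit4, an inhibitor of mTORC1 that hypoxia and the unfolded protein response also induce, had 65.5, 52.6 and 82.1 CPM in wild type, against 162, 159 and 124 CPM in Hdac3 CKO, and rose by 1.15 ± 0.18 (adjusted p 0.0228). Gdf15, a secreted stress cytokine that the integrated stress response also induces, had 0.282, 0.252 and 0.366 CPM in wild type, against 1.43, 0.987 and 1.42 CPM in Hdac3 CKO, and rose by 2.08 ± 0.34 (adjusted p 0.0251), from 13 to 18 reads per library to 42 to 61. The Hdac3 CKO libraries lay above the wild type libraries in all 3 genes. The calls of Cdkn1a and Ddit4 were lost without wild type replicate 1 (adjusted p 0.118 and 0.101), wild type replicate 2 (0.126 and 0.0871) or Hdac3 CKO replicate 3 (0.0560 and 0.0519). That of Gdf15 was lost without any 1 library other than Hdac3 CKO replicate 2, at adjusted p values of 0.0501 to 0.109. With library totals Cdkn1a was not called (adjusted p 0.0502), while Ddit4 (0.0486) and Gdf15 (0.0427) were. With limma on log2 RPKM, Cdkn1a was lost at a pseudocount of 1 (0.107) and 0.1 (0.0949), and Ddit4 at 1 only (0.0587). Gdf15 was also lost with the Y-linked level as a covariate (0.0610).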

How the data were processed

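Per the file headers, raw gene counts and RPKM values were deposited by the authors for the 6 libraries. The submitters' processing notes name mm10, featureCounts, Subread, TopHat2 2.1.0 and bcl2fastq 1.8.4. Annotation release, strand setting and treatment of multiply mapped reads: not given in the sources used here. Genotypes came from the labels, and replicates were numbered in record order, which pairs nothing.

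Counts were filtered by edgeR 4.0.16 (R 4.3.3), which left 20210 genes with 99.9% of counts, and normalised by TMM. The genotypes were compared by the robust quasi-likelihood test over all 6 libraries with no covariate and Benjamini-Hochberg adjustment over all genes tested. Intervals of log2 fold changes are 95% intervals from that fit. The RPKM of the authors served only for levels between genes, ratios and limma 3.58.1 alternatives with pseudocounts of 1 and 0.1. DESeq2 1.42.0 was an alternative. All 33 members were found by identifier in GENCODE M21 and are protein coding. Promoter sequences were RefSeq's.

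The members and lists were chosen with earlier results of these data known. By rule, library values are given for members that passed the test, for those with separated values and an unadjusted p under 0.05, and for Trp53, Mdm2, Bax, Bcl2l1, Phlda3 and Eda2r. Outside the members the rule named Hdac3, Cdkn1a, genes that passed and the 2 smallest p of each pathway list.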

Additional observations from a re-analysis of the deposited data

How the results depend on the processing

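The number of members called higher, 1, became 0 with library totals, with limma on RPKM (pseudocount 1 or 0.1), with the Y-linked level as a covariate, or with replicate 3 of both genotypes left out. It was 2 with no filter on low counts and 3 in DESeq2 (Eda2r, Phlda3 and Zmat3), and ranged from 0 to 2 when 1 library was left out. The number called lower was 0 in every fit. The 1.18% of all genes called belongs to the main fit only, and the share under each alternative is not given here. The members' median of 0.02 became -0.16 with library totals, -0.089 on log2 RPKM with a pseudocount of 1 and -0.10 with 0.1. For the regulators, DESeq2 called 1 higher, and the median of -0.15 became -0.33 with library totals and -0.27 on log2 RPKM with a pseudocount of 0.1. For the further targets, 3 called higher became 5 in DESeq2, 1 on log2 RPKM with a pseudocount of 1, 0 with replicate 3 of both genotypes left out and 0 to 3 when 1 library was left out. Their median of 0.18 became -0.016 with library totals, 0.034 and 0.042 on log2 RPKM with a pseudocount of 1 and 0.1, 0.26 with the Y-linked covariate, 0.26 with replicate 3 of both genotypes left out, and 0.076 to 0.27 when 1 library was left out. The adjusted p of Phlda3 ranged from 2.9e-04 to 0.217 over 19 alternatives, and it was called in 10. None of the calls changed direction, while 17 of the 33 members changed sign in some alternative without a call in either. An older form of the quasi-likelihood deviance was added after seeing the data and changed no call among the members. No paired analysis was possible because the labels give no replicate numbers that the genotypes share. With 3 libraries a genotype, the 95% interval of the fold change ran from 0.888 to 1.40 for Trp53 and from 0.760 to 1.26 for Mdm2.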
